A study of Mus musculus with 8 samples.

Results

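The complement genes described here are C1qa, C1qb, C1qc, C1ra, C3, C4b, C3ar1, C5ar1 and Serping1, taken by gene name from the deposited count table. They are 9 of its 31894 genes with an identifier. 8 of them passed the filter on low counts, which kept 13598 genes, and C1ra did not. The libraries hold mRNA of tumor cells sorted from breast cancer brain metastases (BCBM) of 4 mice, numbered 57, 58, 67 and 70, with 1 E-cadHI and 1 E-cadLO library from each mouse. The sample labels give the strain of every mouse as FVB, the genotype as wild type, the tissue as a brain metastasis tumor and the E-cadherin status of the sorted cells as high or low. By the study's methods, the tumor cells of both groups came from organoids of PyMT mammary tumors, a breast cancer driven by the polyoma middle T oncogene in the mammary epithelium. They carried an E-cadherin reporter tagged with the fluorophore mCFP and the nuclear label H2B-Dendra2, and had passed through 6 serial rounds in the brain before organoids were made. Mice were injected intracranially at 8 to 20 weeks of age, and both populations were sorted from the same tumors by their mCFP signal. The methods describe the purity check of the sort as made on mCFP-positive cells. The comparison asks how the complement genes of E-cadLO cells, which lost the reporter, differ from those of E-cadHI cells of the same mouse.

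Complement is a cascade of plasma and tissue proteins that tags cells and debris, recruits leukocytes and can lyse membranes. C1q, built of A, B and C chains, recognizes targets and activates the proteases C1r and C1s, which cleave C4 and C2 so that C3 can be cleaved. The fragments C3a and C5a act on the receptors encoded by C3ar1 and C5ar1, and the C1 inhibitor encoded by Serping1 blocks C1r and C1s. In the brain, C1q chains and both receptors are known as genes of microglia and macrophages, while C3 is also made by astrocytes and many epithelial cells. C3 from tumor cells is known from studies of leptomeningeal metastasis, where it acts on the choroid plexus.

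Total counts per library ran from 9102781 to 15769200, so that 3 counts, taken as the limit of detection, stood for 0.190 to 0.330 CPM, the counts scaled to a common library total, before any further scaling. This limit covers counting error only. Cdh1, which encodes E-cadherin, had 114, 132, 93.5 and 108 normalized CPM in the E-cadHI libraries of mice 57, 58, 67 and 70 and 71.6, 181, 84.5 and 59.2 in their E-cadLO libraries. Its transcript was lower in the E-cadLO library in 3 of 4 mice and higher in the library labelled E-cadLO of mouse 58, with a fitted log2 fold change of -0.17 (SE 0.33, adjusted p = 0.809, edgeR's quasi-likelihood test adjusted by Benjamini-Hochberg). The sort used the protein reporter and not this transcript. Summed markers of fibroblasts and mural cells stood at 1204 normalized CPM in the E-cadLO library of mouse 57, against 11.01 to 194 in the other 7 libraries. The gene Gm42418 held 14.4% of the counts in the E-cadLO and 7.67% in the E-cadHI library of mouse 58. It held 2.23% to 3.93% in the other libraries where it was the top gene. That E-cadLO library also had the lowest total counts. Whether this bears on the values of mouse 58 was not tested.

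Normalized CPM are CPM after scaling of the library sizes by TMM (trimmed mean of M values), and libraries are listed below in the order of mice 57, 58, 67 and 70. The C1q chains, both anaphylatoxin receptors and Serping1 had higher values in the E-cadLO library in 4 of 4 mice, which are 6 of the 8 genes that passed the filter, against 16.8% of all genes tested that were higher in 4 of 4 mice and 14.2% that were lower. C3, the central opsonin, and C4b, whose product is cleaved earlier in the classical pathway, each had no common direction over the mice. None of the 8 separated the groups fully, that is, with every E-cadLO library above or below every E-cadHI library. Of all genes tested, 3.9% lay fully above and 4.2% fully below. In the fit without the mouse, 0 of the 8 genes passed an adjusted p of 0.05, as did 0% of all genes tested (edgeR's quasi-likelihood test adjusted by Benjamini-Hochberg). With the mouse as a replicate block, C3ar1 alone rose, against 0.728% of all genes tested that rose in that fit.

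The 3 chains of C1q were counted over a wide range of levels. Their genes lie next to each other on chromosome 4 of the mouse genome GRCm38, minus strand, within 18.7 kb from 136880129 to 136898803. They are C1qb (136880129 to 136886187), C1qc (136889804 to 136893065) and C1qa (136895917 to 136898803). None of the 65-base windows of their transcripts occurred in another gene.

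C1qa, the A chain, had 1.12, 8.68, 13.5 and 33.1 normalized CPM in the E-cadHI libraries and 11.4, 17.1, 75.9 and 115 in the E-cadLO libraries. C1qb, the B chain, had 1.12, 8.99, 18.95 and 57.1 in the E-cadHI libraries and 20.5, 18.8, 143 and 200.3 in the E-cadLO libraries. C1qc, the C chain, had 0.488, 6.76, 15.5 and 37.0 against 15.5, 18.0, 113 and 149. For each chain the E-cadLO library was the higher one in every mouse, while the groups overlapped because the E-cadHI library of mouse 70 lay above the E-cadLO libraries of mice 57 and 58. The libraries of mice 67 and 70 were the highest of the E-cadLO group and mouse 57 gave the lowest of the E-cadHI group, with 16, 16 and 7 counts of C1qa, C1qb and C1qc.

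Within mice 57, 58, 67 and 70, E-cadLO values of C1qb were 13.01, 2.04, 7.40 and 3.49 times those of E-cadHI cells, computed on normalized CPM plus 0.5. The same ratios were 7.39, 1.92, 5.48 and 3.43 for C1qa and 16.1, 2.55, 7.13 and 3.98 for C1qc. Mouse 57 had the widest and mouse 58 the narrowest ratio for each chain. The fitted log2 fold changes without the block were 1.97 for C1qa (SE 0.95, adjusted p = 0.384), 2.16 for C1qb (SE 1.08, adjusted p = 0.393) and 2.31 for C1qc (SE 1.08, adjusted p = 0.371), by edgeR's quasi-likelihood test adjusted by Benjamini-Hochberg. In these bulk libraries, more cells that carry the transcript and more of it per cell cannot be told apart.

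**Figure D1:**
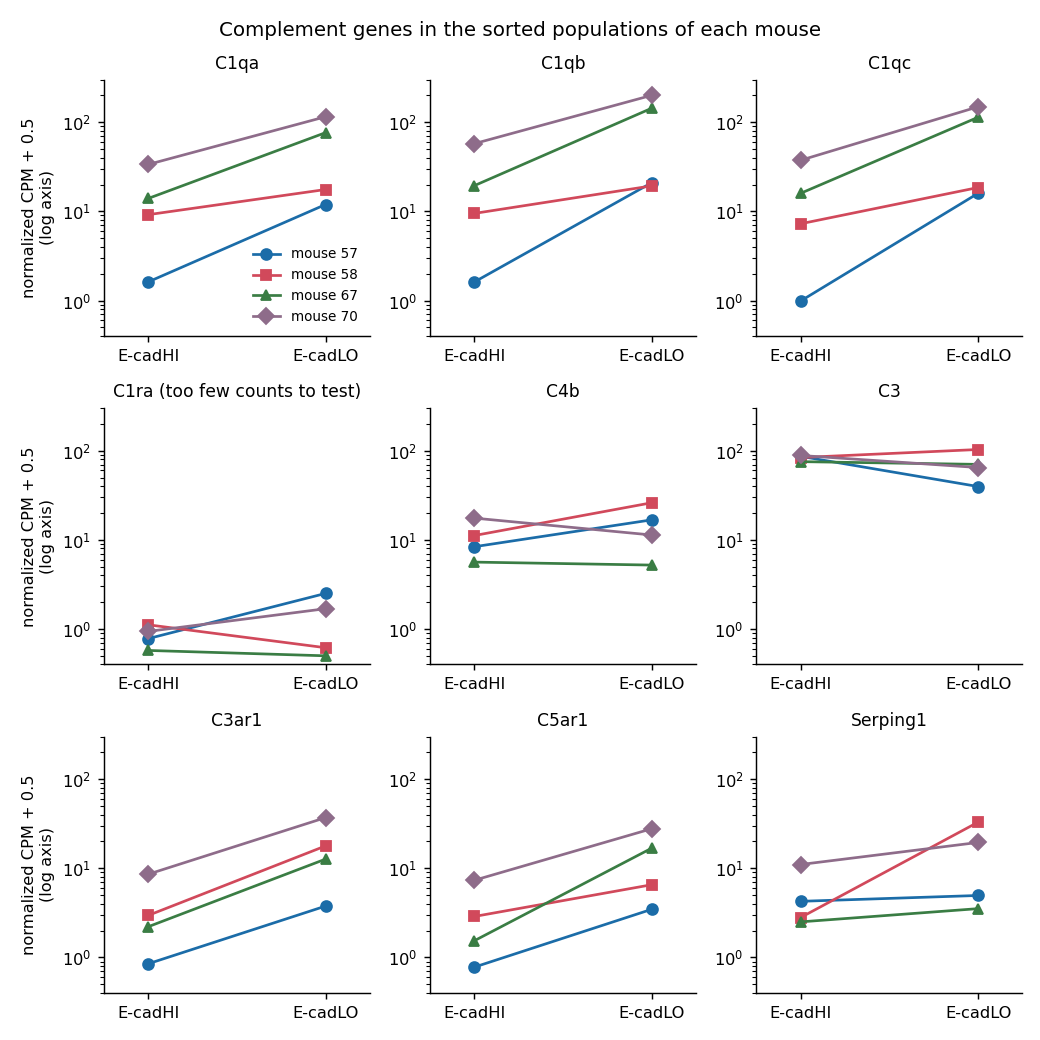
Normalized CPM plus 0.5 (vertical log axis) of the 9 complement genes in the E-cadHI and E-cadLO library of each mouse, 1 panel a gene and 1 line a mouse. The lines of C1qa, C1qb, C1qc, C3ar1, C5ar1 and Serping1 go up in 4 of 4 mice, and those of C3 and C4b do not share a direction.

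The region before the start of C1qb is shown because this gene had the highest level per length of the 9 in both groups. The bases are those of the RefSeq promoter table for the build GRCm38.p6, chr4:136886201-136886450, minus strand, 250 bases ending just before the RefSeq start, and come from the C57BL/6J reference and not from FVB mice. The capitals mark the letters GAGGAA, the core that PU.1, a transcription factor of myeloid cells, is known to bind, beginning 30 bases before the start.
C1qb: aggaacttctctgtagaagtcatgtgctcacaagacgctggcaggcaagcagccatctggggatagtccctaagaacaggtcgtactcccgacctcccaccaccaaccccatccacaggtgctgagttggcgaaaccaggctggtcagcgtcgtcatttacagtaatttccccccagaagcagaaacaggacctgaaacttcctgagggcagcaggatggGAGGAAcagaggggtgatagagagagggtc
These letters were searched on both strands and occur in 23.3% of the 32851 promoters of the table in a window of this length. C1qc holds them on the reverse strand, 193 bases before its RefSeq start. 6 of the 9 genes matched the table, which leaves C1qa, C4b and Serping1 without a sequence here.

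C1ra and C4b belong to the next steps of the classical pathway. C1ra (chromosome 6, 124512405 to 124523443), which encodes the protease C1r, was close to the limit of detection, with 4, 8, 1 and 5 counts in the E-cadHI libraries and 27, 1, 0 and 17 in the E-cadLO libraries. It was left out of the test, and 45.4% of its 65-base windows are shared with other genes, most of them with C1rb, so that its reads may be divided between genes. C4b (chromosome 17, 34728380 to 34743882), which encodes complement C4, had 7.88, 10.7, 5.13 and 17.0 normalized CPM in the E-cadHI libraries and 16.3, 25.6, 4.71 and 10.8 in the E-cadLO libraries. E-cadLO values were 2.002 and 2.33 times those of E-cadHI cells in mice 57 and 58 and 0.93 and 0.65 times in mice 67 and 70, so the direction was divided between the mice. The fitted log2 fold change of C4b was 0.49 (95% interval -0.71 to 1.69, adjusted p = 0.657, edgeR's quasi-likelihood test). C4b shares 26.7% of its windows with C4a, its close copy, which had 2 to 42 counts per library.

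C3 (chromosome 17, 57203970 to 57228136), the protein on which the pathways of complement converge, was the most even of the 9 genes across the E-cadHI libraries. It had 86.0, 83.4, 74.9 and 88.0 normalized CPM there and 39.2, 103, 69.8 and 64.3 in the E-cadLO libraries. The E-cadHI libraries stayed within a narrow band of 83.1 ± 5.75 (SD, n = 4), and the E-cadLO libraries, at 69.0 ± 26.1 (SD, n = 4), lay on either side of it. E-cadLO cells had 0.46, 1.23, 0.93 and 0.73 times the E-cadHI value, lower in 3 of 4 mice and higher in mouse 58. The fitted log2 fold change of C3 was -0.27 (SE 0.26, 95% interval -0.85 to 0.31, adjusted p = 0.612) without the block and -0.34 (SE 0.24, 95% interval -0.90 to 0.22, adjusted p = 0.442) with it, by edgeR's quasi-likelihood test. Without mouse 57 it was -0.08 (95% interval -0.59 to 0.44), and without mouse 58 it was -0.51 (95% interval -1.07 to 0.05). The depth was not the limit for C3, which had 527 to 1234 counts per library. The microRNA gene Mir6978 lies within C3 on the same strand.

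The bases before the start of C3 are given beside those of C1qb, since the values of these genes took different courses over the same libraries. They are chr17:57228137-57228386 of GRCm38.p6, minus strand, from the same RefSeq table. The capitals mark a match on the reverse strand to TTNNGCAA, a form of the site known for the C/EBP factors, beginning 45 bases before the start.
C3: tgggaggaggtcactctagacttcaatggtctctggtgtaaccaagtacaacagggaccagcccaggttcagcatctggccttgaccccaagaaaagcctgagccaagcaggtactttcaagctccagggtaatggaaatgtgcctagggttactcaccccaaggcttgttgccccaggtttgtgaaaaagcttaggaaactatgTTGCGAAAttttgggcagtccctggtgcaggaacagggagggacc
Of all promoters in the table, 9.56% hold this pattern on one strand or the other in a window of this length. The GAGGAA letters are not in the C3 window, and the C/EBP pattern is not in that of C1qb. A match describes the letters and is not evidence of binding.

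The receptors for the fragments C3a and C5a were low in the E-cadHI libraries. C3ar1 (chromosome 6, 122847138 to 122856161), the C3a receptor, had 0.348, 2.46, 1.71 and 8.08 normalized CPM in the E-cadHI libraries and 3.27, 17.3, 12.2 and 36.6 in the E-cadLO libraries. The E-cadLO library was the higher one in each mouse, and the groups overlapped because 8.08 in the E-cadHI library of mouse 70 lay above 3.27 in the E-cadLO library of mouse 57. The ratios within the mice were the most even of the 9 genes by their SD on the log2 scale (0.25), with 4.44, 6.03, 5.74 and 4.32 in mice 57, 58, 67 and 70. C3ar1 had a log2 fold change of 2.47 without the block (SE 0.92, unadjusted p = 0.0246, adjusted p = 0.312, edgeR's quasi-likelihood test). With the mouse as a block it rose by 2.70 on the log2 scale (SE 0.33, 95% interval 1.95 to 3.46, adjusted p = 0.0239, same test).

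C5ar1 (chromosome 7, 16246743 to 16259540), the C5a receptor, had 0.279, 2.38, 1.04 and 6.85 normalized CPM in the E-cadHI libraries and 2.97, 6.05, 16.4 and 27.3 in the E-cadLO libraries. It was higher in the E-cadLO library in each mouse, at 4.46, 2.27, 10.9 and 3.79 times the E-cadHI value, and mouse 67 had the widest ratio. The log2 fold change was 2.33 without the block (SE 0.96, unadjusted p = 0.0367, adjusted p = 0.336) and 2.58 with it (SE 0.52, adjusted p = 0.0793), by edgeR's quasi-likelihood test. In the E-cadHI library of mouse 57, C3ar1 and C5ar1 rested on 5 and 4 counts, just above the limit of 3.

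The bases before the RefSeq start of C3ar1, the gene that passed with the block, are chr6:122856158-122856407 of GRCm38.p6, minus strand. The capitals mark TGACTCA, the site known for AP-1, beginning 22 bases before the start.
C3ar1: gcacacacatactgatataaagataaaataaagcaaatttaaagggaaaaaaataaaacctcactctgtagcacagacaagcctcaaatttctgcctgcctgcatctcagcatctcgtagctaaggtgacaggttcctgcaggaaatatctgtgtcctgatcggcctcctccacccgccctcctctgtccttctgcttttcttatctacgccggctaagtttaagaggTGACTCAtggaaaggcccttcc
This site occurs on either strand in 4.46% of the promoters of the table. C5ar1 and C1ra hold none of the 3 patterns in their windows of the same length. These windows, set by the RefSeq start, run from 16259339 to 16259588 and from 124512371 to 124512620. They lie mostly within the gene spans given above, so they cover little of the bases before those spans. The C1qc window, 136892915 to 136893164, also overlaps the span given for that gene.

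Serping1 (chromosome 2, 84765387 to 84775444), which encodes the C1 inhibitor, had 3.76, 2.31, 2.01 and 10.5 normalized CPM in the E-cadHI libraries and 4.46, 32.5, 3.03 and 19.0 in the E-cadLO libraries. Its E-cadLO values were 1.16, 11.7, 1.41 and 1.77 times those of E-cadHI cells in mice 57, 58, 67 and 70. Every mouse shared the direction, but a wide ratio was seen in mouse 58 alone. The log2 fold change of Serping1 was 1.66 (95% interval -0.19 to 3.51, adjusted p = 0.388, edgeR's quasi-likelihood test) and came to 0.72 (95% interval -1.38 to 2.82, adjusted p = 0.687) without mouse 58. With the block it was 1.29 (adjusted p = 0.289).

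Read over the 8 genes, the calls depended on whether the mouse was taken into the fit. At an unadjusted p under 0.05 in edgeR's fit without the block, C3ar1 and C5ar1 were higher in E-cadLO cells and 0 genes of the list were lower, against 8.16% of all genes tested that were higher and 5.81% that were lower. With the block, 5 genes (C1qa, C1qb, C1qc, C3ar1 and C5ar1) were higher at an unadjusted p under 0.05. Of all genes tested, 12.3% were higher at that level. Their log2 fold changes with the block were 2.09 for C1qa (SE 0.36, adjusted p = 0.0547), 2.39 for C1qb (SE 0.45, adjusted p = 0.0697) and 2.58 for C1qc (SE 0.47, adjusted p = 0.0647), so these chains lay just outside the threshold. DESeq2 without the block called 0 of the 8 genes, while it called 2.64% of all genes higher and 0.294% lower. DESeq2 with the block called the same 5 genes higher, against 7.19% of all genes higher and 1.51% lower.

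The mouse that was left out mattered to these calls. In edgeR's fit with the block, C1qa, C1qb, C1qc, C3ar1 and C5ar1 passed without mouse 57, C1qa alone passed without mouse 58, and 0 genes of the list passed without mouse 67 or without mouse 70. C3ar1, the gene called with the block, thus kept its call without mouse 57 alone. Over all fits made, the adjusted p of C3ar1 ran from 8.76e-11 to 0.68, that of C1qa from 1.19e-06 to 0.715, that of C5ar1 from 4.57e-05 to 0.696 and that of C3 from 0.272 to 0.941 (edgeR and DESeq2). Each of the 5 genes kept a positive log2 fold change in the fits with each mouse left out. Without the block, 0 of the 8 genes passed when any mouse was left out.

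**Figure D2:**
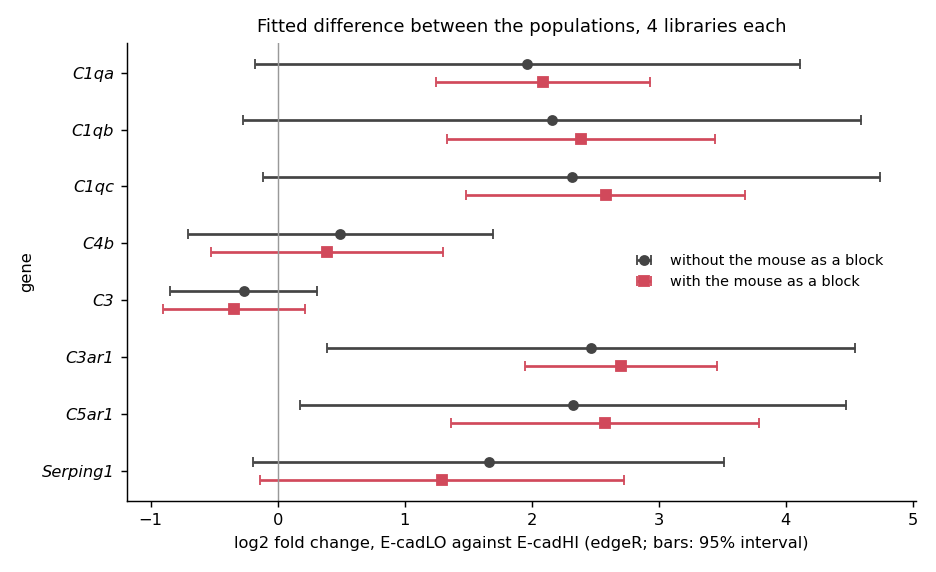
Fitted log2 fold change, E-cadLO against E-cadHI (horizontal axis), with 95% intervals, of the 8 complement genes that passed the filter, from edgeR without the mouse (circles) and with the mouse as a block (squares). The intervals of C1qa, C1qb, C1qc, C3ar1 and C5ar1 are narrower with the block, and those of C3 and C4b span 0 in both fits.

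The median fitted log2 fold change of the 8 genes was 2.06, and 7 of them were above 0, beside a median of 0.06 over all genes tested. Mouse by mouse, the 8 genes had a median log2 ratio of 2.15, 1.20, 2.49 and 1.79 in mice 57, 58, 67 and 70, beside 0.02, 0.00, 0.02 and 0.07 over all genes tested. The value of mouse 58 was the lowest of the 4. These medians describe the list, and the choice of its members enters them.

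Levels of different genes can be compared per length only, as normalized CPM per kilobase of merged exons. In E-cadHI libraries the order was C1qb (19.8 ± 22.8, SD, n = 4), C3 (16.2 ± 1.12), C1qa (13.5 ± 13.1), C1qc (7.73 ± 8.25), Serping1 (2.001 ± 1.72), C4b (1.79 ± 0.90), C5ar1 (1.03 ± 1.14), C3ar1 (0.73 ± 0.79) and C1ra (0.12 ± 0.08). In E-cadLO libraries it was C1qb (88.0 ± 83.5), C1qa (52.7 ± 47.6), C1qc (38.2 ± 35.0), C3 (13.4 ± 5.08), Serping1 (6.34 ± 5.95), C5ar1 (5.13 ± 4.29), C3ar1 (4.03 ± 3.27), C4b (2.52 ± 1.56) and C1ra (0.28 ± 0.32). Neighbours in either order differed by less than the larger of their SDs over the 4 libraries, except C3 against Serping1 and C4b against C1ra in the E-cadLO libraries, which differed by more than either SD. In the E-cadHI library of mouse 57, C3 stood at 16.7 CPM per kilobase and C1qb at 1.02, whereas in the E-cadLO library of mouse 70 C3 stood at 12.5 and C1qb at 184, so the place of C3 relative to C1q turned between libraries.

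**Figure D3:**
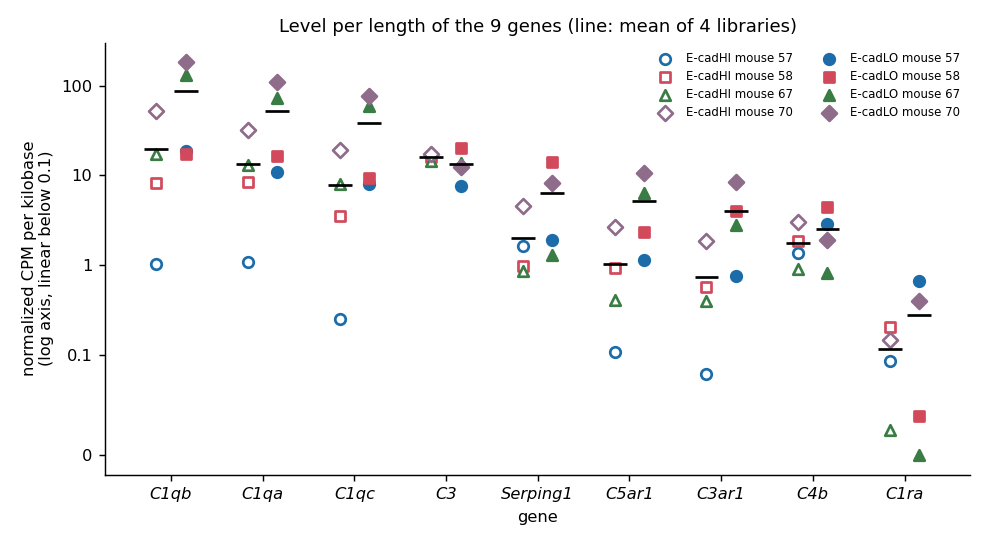
Normalized CPM per kilobase of merged exons (vertical log axis, linear below 0.1) of the 9 complement genes, with open symbols for E-cadHI and filled symbols for E-cadLO libraries and a line at the mean of 4 libraries. C3 is confined to 7.61 to 19.97 over the 8 libraries, and C1qb runs from 1.02 to 184.

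The order of the libraries by C1q resembled their order by markers of microglia, the resident macrophages of the brain. The sum of C1qa, C1qb and C1qc was 2.72, 24.4, 47.9 and 127 normalized CPM in the E-cadHI libraries and 47.4, 54.0, 333 and 464 in the E-cadLO libraries. The sum of 13 microglia markers, none of them a complement gene, was 62.7, 79.6, 110 and 185 in the E-cadHI libraries and 188, 170, 452 and 583 in the E-cadLO libraries. The E-cadHI library of mouse 57 was lowest and the E-cadLO library of mouse 70 highest on both sums. All 13 markers passed the filter, and 11 of them were higher in the E-cadLO library in 4 of 4 mice, against 16.8% of all genes tested. In edgeR's fit with the block 3 of them rose, against 0.728% of all genes tested, and markers of other brain cell types rose there too, as given below. Siglech and Fcrls had 0 counts in the E-cadHI library of mouse 57, and the other 11 were counted in every library. P2ry12 had 33 to 96 counts in the E-cadHI libraries and 68 to 586 in the E-cadLO libraries. Tmem119 had 3 to 98 and 72 to 730. Gpr34 and Olfml3 did not share the direction in every mouse. In mouse 58, Gpr34 had 1.92 normalized CPM in the E-cadHI and 0.233 in the E-cadLO library. In mouse 70, Olfml3 had 30.7 and 26.5.

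Set against these markers, C1q was not a fixed multiple of them. The C1q sum per unit of the microglia sum was 0.0434, 0.307, 0.436 and 0.686 in the E-cadHI libraries and 0.252, 0.318, 0.736 and 0.795 in the E-cadLO libraries, higher in the E-cadLO library in each mouse. Per 100 CPM of microglia markers, C3ar1 had 0.556, 3.09, 1.56 and 4.36 CPM in the E-cadHI libraries and 1.74, 10.2, 2.70 and 6.27 in the E-cadLO libraries, and was likewise higher in each mouse. The chains themselves kept similar proportions per length, with C1qb at 40.2% to 50.7% of the sum, C1qa at 27.7% to 45.6% and C1qc at 10.8% to 22.3% over the 8 libraries. The extremes for C1qa and C1qc were both in the E-cadHI library of mouse 57, where the chains had few counts.

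Markers of other cell types were counted in both groups as well. Like those of microglia, none of them passed in edgeR's fit without the block. With the block, 3 astrocyte, 2 oligodendrocyte, 2 neuron and 1 choroid plexus marker rose, beside the 3 of microglia. Of all genes tested, 0.728% rose in that fit. Summed markers of macrophages and monocytes were at 26.8 to 117 normalized CPM in the E-cadHI and 43.6 to 235 in the E-cadLO libraries. Of the 7 that passed the filter, 5 were higher and 1, Cd163, was lower in 4 of 4 mice. Of all genes tested, 16.8% were higher and 14.2% lower in 4 of 4 mice, which is the background for each list here. Cd163 had 26.2, 20.7, 22.3 and 20.4 normalized CPM in the E-cadHI libraries and 8.32, 18.7, 19.8 and 17.0 in the E-cadLO libraries. It made up most of the lowest E-cadHI sum, that of mouse 57. Of the 10 markers, 8 had 0 counts in at least 1 library, Mrc1 and Adgre1 among them. Oligodendrocyte markers were at 556 to 8673 in the E-cadHI and 1325 to 34817 in the E-cadLO libraries, with 6 of 10 higher in 4 of 4 mice. Neuron markers were at 11.7 to 367 in the E-cadHI and 70.1 to 961 in the E-cadLO libraries. Of these, 7 of 10 were higher in 4 of 4 mice, and their sum was higher in each mouse. Endothelial markers were at 42.4 to 78.3 in the E-cadHI and 63.7 to 112 in the E-cadLO libraries, with a higher sum in each mouse. Of the 8 that passed the filter, 4 were higher in 4 of 4 mice, as were 3 of 9 for fibroblasts and mural cells. Astrocyte markers, of a cell type known to make C3, were at 1203 to 3665 and 767 to 10058, with 5 of 10 higher in 4 of 4 mice and a lower sum in the E-cadLO library of mouse 57 than in its E-cadHI library. Markers of epithelial tumor cells were at 7942 to 10689 in the E-cadHI and 5927 to 14887 in the E-cadLO libraries, and 1 of the 13 that passed the filter was higher and 2 lower in 4 of 4 mice. Per 100 CPM of these, C3 had 0.805, 1.05, 0.708 and 0.935 CPM in the E-cadHI libraries and 0.661, 1.04, 0.469 and 0.770 in the E-cadLO libraries. This ratio was lower in the E-cadLO library in each mouse, with the smallest difference in mouse 58. Of 10 neutrophil markers, 3 passed the filter and 2 of these, S100a8 and Ltf, were lower in 4 of 4 mice. Ltf, at 2625 to 19343 normalized CPM, made up nearly the whole sum of this list. S100a9, Ly6g, Retnlg and Camp had 0 counts in at least 1 library. Csf3r had 3, 15, 5 and 23 counts in the E-cadHI libraries and 0, 10, 110 and 106 in the E-cadLO libraries. Whether these transcripts came from neutrophils was not tested. None of the lymphocyte markers passed the filter, with a sum of at most 9.99. The part of each cell type in the values of the complement genes was not tested.

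**Figure D4:**
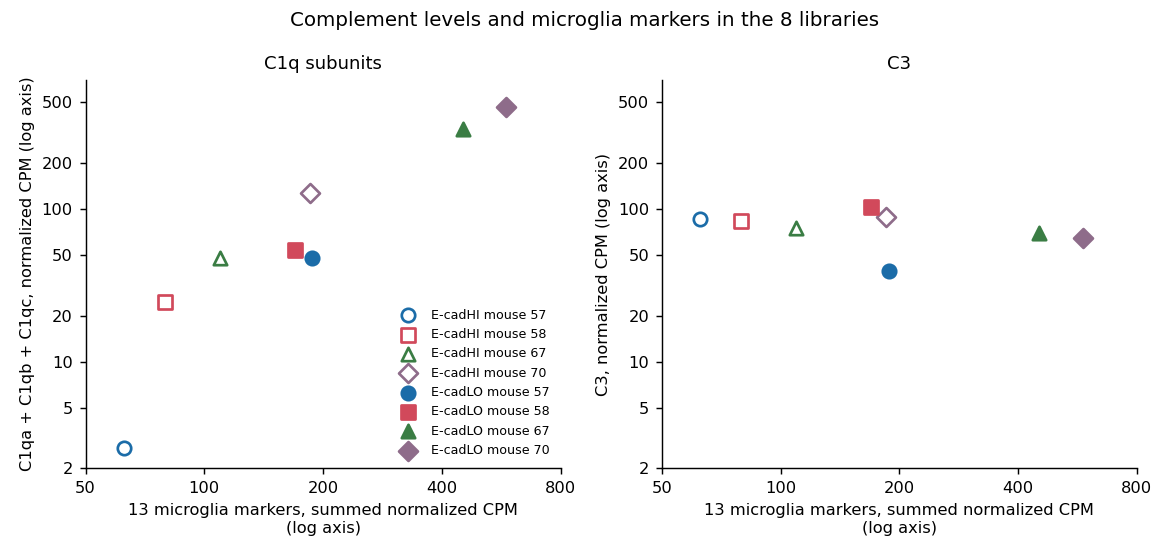
Summed normalized CPM of 13 microglia markers (horizontal log axis) against the sum of C1qa, C1qb and C1qc (left) and against C3 (right, vertical log axes), 1 symbol a library, open for E-cadHI and filled for E-cadLO. The C1q sum runs from 2.72 to 464 from the library with the lowest to that with the highest marker sum, and C3 stays between 39.2 and 103.

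The genes whose pattern over the 8 libraries was closest to that of C3 and of the C1q sum were found by the root mean square difference of centred log2 normalized CPM (plus 0.5). For the C1q sum they were Ms4a7 (0.37), Fcer1g (0.41), Itgb2 (0.48), Plek (0.49) and Tyrobp (0.52), beside a median of 2.14 over all genes tested. Tyrobp and Ms4a7 also stand on the lists of microglia and of macrophage markers. For C3 they were Rps20 (0.07), Rpl27a (0.08), Eef1a1 (0.09), Rps24 (0.09) and Rpl32 (0.09), beside a median of 0.56. The same measure was 0.19 between C1qb and C1qc, 0.36 between C1qa and C1qb, 0.50 between C3ar1 and C5ar1, and 2.21 between C1qb and C3. Serping1 and C4b also lay far from C1qb, at 2.04 and 2.25.

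A wider list of 50 complement genes was read from the same fits, and 21 of them passed the filter. In edgeR's fit without the block 0 of the 21 passed the adjusted threshold. At an unadjusted p under 0.05, Masp1, Itgam, Itgax, Itgb2 and Cd93 were among the genes higher in E-cadLO cells, and Cd55 and Cd59a were lower. Of all genes tested, 8.16% were higher and 5.81% lower at that level. The median log2 fold change of the 21 genes was 0.32, with 12 of 21 above 0, and was -0.03 with the block. With the block, Itgam and Itgax rose and 0 fell, against 0.728% of all genes that rose. DESeq2 called Itgam higher and Cd55 lower without the block, against 2.64% of all genes higher and 0.294% lower. With the block it called Itgam, Itgax and Itgb2 higher and Cd55 and Cd59a lower, against 7.19% of all genes higher and 1.51% lower.

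Itgam and Itgax encode the alpha chains of complement receptors CR3 and CR4, which bind C3 fragments on tagged cells. Itgam had 2.30, 4.84, 6.39 and 6.41 normalized CPM in the E-cadHI libraries and 117, 41.8, 65.5 and 34.9 in the E-cadLO libraries. Itgax had 0.906, 1.23, 2.68 and 2.37 in the E-cadHI libraries and 101, 19.7, 24.3 and 20.2 in the E-cadLO libraries. For both genes each E-cadLO library was above each E-cadHI library, unlike C1q or C3ar1, and mouse 57 was the highest E-cadLO library where it had been the lowest or next to it for C1q. With the block, Itgam rose by 3.57 on the log2 scale (SE 0.51, adjusted p = 0.033) and Itgax by 4.14 (SE 0.63, adjusted p = 0.038), by edgeR's quasi-likelihood test. Without mouse 57 both kept their call, at 2.95 and 3.37 (adjusted p = 0.0033 for each), and without mouse 58, 67 or 70 both lost it (adjusted p = 0.0743, 0.318 and 0.126 for Itgam and 0.0884, 0.287 and 0.141 for Itgax, edgeR with the block). Of the 65-base windows of Itgam, 65.7% are shared with Gm49368, and 6.14% of those of Itgax with Itgad, so their counts carry that uncertainty. Itgb2, their common beta chain, had 0, 1.61, 3.05 and 7.46 against 3.27, 7.79, 40.2 and 33.2, a log2 fold change of 3.10 with the block (SE 0.59, adjusted p = 0.0705, same test), and its groups overlapped as those of C1q did.

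Of the inhibitors that sit on the cell membrane, Cd55, Cd59a, Cd59b and Cr1l had lower values in the E-cadLO library in 4 of 4 mice, as 14.2% of all genes tested did, and none of them passed the adjusted threshold in edgeR's fits of all 8 libraries. Others did not share this direction. Susd4 had a log2 fold change of 1.997, which rested on mice 58 and 70. It had 0, 17, 2 and 11 counts in the E-cadHI libraries and 0, 37, 2 and 76 in the E-cadLO libraries. Cd46, with 0 to 33 counts per library and not tested, was at 1.12, 1.004, 1.77 and 4.63 times the E-cadHI value. Cd55, which speeds the decay of C3 convertases, had 61.4, 37.7, 64.4 and 49.96 normalized CPM in the E-cadHI libraries and 5.35, 27.0, 22.2 and 19.6 in the E-cadLO libraries. Cd59a, which blocks the membrane attack complex, had 54.2, 37.3, 57.4 and 54.3 against 8.40, 30.7, 31.2 and 31.9. For both genes each E-cadLO library lay below each E-cadHI library, and the E-cadLO library of mouse 57 was the lowest. The log2 fold change of Cd55 was -1.53 without the block (SE 0.43, adjusted p = 0.269) and -1.67 with it (SE 0.45, adjusted p = 0.143), and that of Cd59a was -0.99 (SE 0.38, adjusted p = 0.318) and -1.12 (SE 0.38, adjusted p = 0.191), by edgeR's quasi-likelihood test. Cd55 passed in DESeq2 without the block (adjusted p = 0.0219) and, with mouse 57 left out, in edgeR with the block (log2 fold change -1.15, adjusted p = 0.0345). Cr1l, which encodes the rodent regulator Crry, was at 75.4 to 100.4 in the E-cadHI and 54.1 to 73.4 in the E-cadLO libraries, also without overlap, with a log2 fold change of -0.34 (SE 0.16, adjusted p = 0.376, edgeR's quasi-likelihood test).

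Among the other regulators, Clu, which encodes clusterin, had the highest level of the list, at 848 to 1918 normalized CPM in the E-cadHI and 430 to 1548 in the E-cadLO libraries, and a log2 fold change of -0.61 (SE 0.39, adjusted p = 0.475, edgeR's quasi-likelihood test). C1qbp, named for its binding of C1q and known as a mitochondrial protein, was at 263 to 276 in the E-cadHI and 135 to 265 in the E-cadLO libraries (log2 fold change -0.42, SE 0.21, adjusted p = 0.389, same test). Clu was higher in the E-cadLO library in mouse 58 alone, and C1qbp in no mouse.

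For the alternative pathway, 2 of 3 genes passed the filter. Cfp, which encodes properdin, had a log2 fold change of 1.17 (SE 0.66, adjusted p = 0.435, edgeR's quasi-likelihood test) and was higher in the E-cadLO library in 4 of 4 mice, at 1.30 to 4.29 times. Cfb, which encodes factor B, had -0.89 (SE 0.56, adjusted p = 0.470, same test) and was lower in 3 of 4 mice, at 0.21 times in mouse 57, and its log2 fold change was -0.15 without that mouse. Of the initiators, Colec12 and Masp1 were the 2 of 15 that passed the filter. Masp1, a protease of the lectin pathway, had 34.1 normalized CPM in the E-cadLO library of mouse 57 and 0.348 to 1.15 in the other 7 libraries, so its log2 fold change of 3.56 (adjusted p = 0.324, edgeR's quasi-likelihood test) rested on that library and was -0.34 without mouse 57. Colec12, a scavenger receptor with a collectin domain, was higher in the E-cadLO library in mouse 57 alone, and its log2 fold change of 0.19 (SE 0.56, adjusted p = 0.885, same test) turned to -0.59 without that mouse. Of the 7 terminal components, C8g and C9 passed the filter, with log2 fold changes of -0.30 and -0.04, the latter of no stable sign (0.09, 0.16 and 0.11 without mouse 57, 58 or 67), and the other 5 did not exceed 0.615 normalized CPM in any library.

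**Figure D5:**
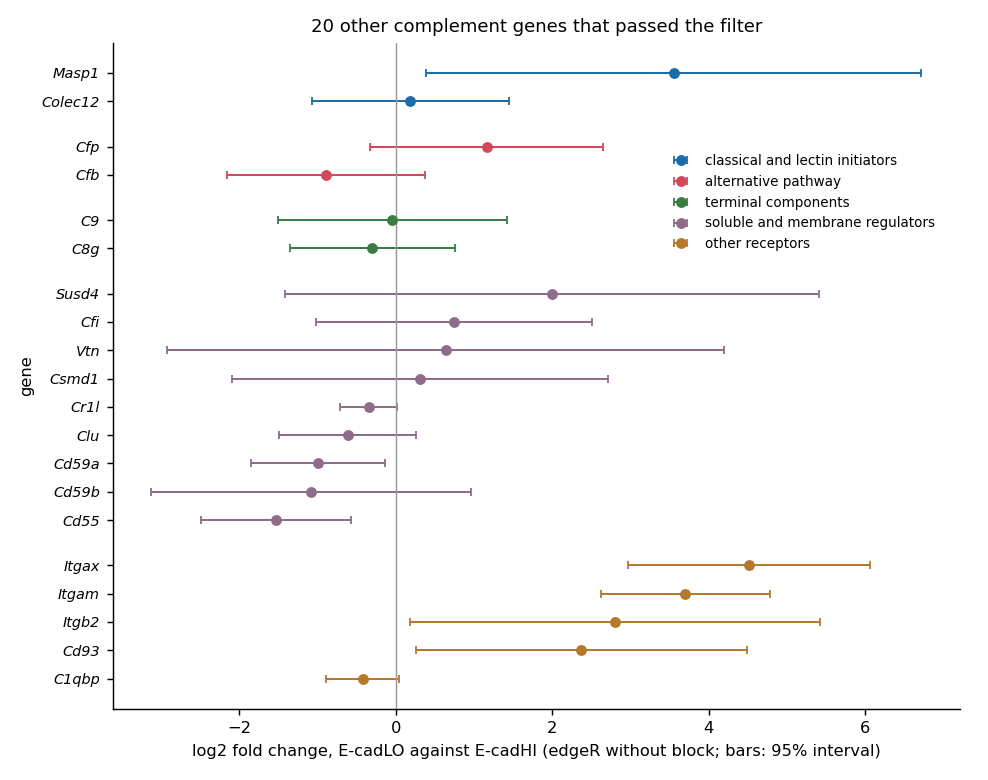
Fitted log2 fold change, E-cadLO against E-cadHI (horizontal axis), with 95% intervals from edgeR without the block, of 20 of the 21 other complement genes that passed the filter, colored by role. The intervals of Masp1, Itgax, Itgam, Itgb2 and Cd93 lie above 0 and those of Cd55 and Cd59a below it, and 0 of the 21 passed the adjusted threshold in this fit.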

How the data were processed

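Per the study's methods, TruSeq mRNA libraries were sequenced as 65-base single reads, mapped with Hisat 2.1.0 to GRCm38 and counted with Icount (the submitters' processing notes name HTSeq), and the authors deposited raw counts per gene. Strand setting and the handling of reads that match several genes are not given in the sources used here. The 365 entries without a gene identifier held 0.0636% to 0.0954% of the counts and were left out.

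Counts of all 8 libraries were fitted with edgeR 4.0.16 (R 4.3.3), with TMM, filterByExpr by group, the quasi-likelihood test and Benjamini-Hochberg adjustment over all 13598 genes tested. The main fit had no block, as the methods name DESeq2 and no pairing. The mouse number in the labels pairs the libraries: deviations from the group means correlated at 0.275 to 0.698 within the 4 mice and at -0.516 to 0.153 over the 12 pairs from different mice. Alternatives were the mouse as replicate block, DESeq2 1.42.0 with and without it, its size factors, other filters, a robust fit, a pseudocount of 2 CPM, and each mouse left out. Ratios within a mouse used normalized CPM plus 0.5. P-values without the block measure the spread between the libraries of a group, taken as independent of the other group. Those with the block measure how the difference within a mouse varied between the mice. Exon lengths came from GENCODE M21. The steps were tested on simulated data. Tables and figures were made with Python 3.11, pandas 2.3.3 and matplotlib 3.10.9.

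The 9 members, the wider list and the marker lists were chosen with earlier results of these data known. All members are named. Of the wider list, genes with an adjusted p under 0.05 with or without the block and the 2 with the highest mean CPM in each role were to be named. Cd55, Cd59a, Cd59b, Cd93 and Itgb2 were added after their values were seen. 1 gene of the wider list is not reported here. For likeness, the 5 closest genes are given.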

Additional observations from a re-analysis of the deposited data

How the results depend on the processing

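The number of the 8 complement genes called was 0 in the fit without the block and also with DESeq2's size factors, without a filter, in the robust fit, in DESeq2 and with any 1 mouse left out. With at least 10 counts in every library, 5 of the 8 were tested (C1qa, C1qb, C3, C4b and Serping1) and 0 called. With the mouse as a replicate block it was 1 in edgeR and 5 in DESeq2, and 0 to 5 with the block and 1 mouse left out, a setting chosen after the values were seen. Of 117 alternatives for single genes of the 8, 105 left the direction and the call as they were, 12 brought a call and 0 turned a direction. The mean log2 ratio of C3ar1 within mice went from 2.34 to 1.79 and that of C5ar1 from 2.18 to 1.58 with a pseudocount of 2 CPM, which weighs more on low values.

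Over the whole table the calls were 0 without the block, 99 with the replicate block, 429 in DESeq2, 1247 in DESeq2 with the block, 23 without a filter, 3 with at least 10 counts in every library, and 0 to 449 with the block and 1 mouse left out (449 without mouse 57, 66 without mouse 58, 0 without mouse 67 and 2 without mouse 70). Of the other complement genes, the calls were 2 with the replicate block, 2 in DESeq2, 6 in DESeq2 with the block, 2 without a filter, 1 with at least 10 counts in every library, and 0 to 4 with the block and 1 mouse left out. The cause of these differences was not tested. Plain CPM, also chosen later, left 0 of the 8 genes without overlap. C1ra and the E-cadHI library of mouse 57, with few counts for C1q and the receptors, limit the precision.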
